A study of Mus musculus with 52 samples.

Results

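Liver gene expression 3 days after partial hepatectomy, the surgical removal of most of the liver, was compared with that of untreated liver. The arrays were chosen by their titles, which gave 4 arrays at 3 days and 5 untreated control arrays, 9 of the 52 arrays in a time course with 11 times after the operation. The 3-day livers came from C57Bl6/N mice labelled male that had been operated on, and the control livers from C57Bl6/N mice labelled male and not operated on, with all animals 8 to 12 weeks old and on standard diet per the labels. The 4 arrays at 48 hours and the 4 arrays at 4 days, from operated mice of the same strain and sex, served to place the 3-day livers in time. Sham-operated livers were not analysed here, and each difference from control holds every effect of the operation. Whether each array of a group is from its own mouse is not stated in the labels, and the p-values therefore measure only how far these samples spread, which may be technical.

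Each array reads a gene through 1 or more sets of short probes, and values are log2 expression. A change is the 3-day mean minus the control mean on the log2 scale, given ± SE from limma, with Benjamini-Hochberg adjusted p-values over 18194 genes. The threshold for a call was an adjusted p below 0.05. Where the lower group's mean lay below the median of all probe sets, about 4 on the log2 scale and here named the floor, the fold is given as "at least", computed against the floor. Where both means lay below it, no fold is given.

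After partial hepatectomy the remaining liver grows back, largely through the division of hepatocytes that were resting before the operation. A dividing cell commits in G1 through cyclin D and its kinases, copies its DNA in S phase with the licensing and polymerase machinery, and divides in M phase under cyclin B, Cdk1 and the anaphase-promoting complex. In mouse liver the hepatocytes divide first, and other cells of the liver are known to follow. Hepatocytes meanwhile secrete acute phase proteins and go on with metabolism, part of which differs between male and female mice under the control of growth hormone.

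One 3-day array stood apart from its group. Over the 2000 most variable genes the deviation of replicate 2 correlated at 0.13 with the mean of the other 3-day arrays, whereas that of the other 3 correlated at 0.77 to 0.85 with their own group. Replicate 2 had the lowest cell cycle values of the group and the highest acute phase values, so the results below are given with and without it where they depend on it. It also stood apart on the control probe sets. Its hybridization controls were at 10.21, against 9.57 to 9.59 on the other 3-day arrays, and its poly-A controls at 6.19, against 4.52 to 5.24. The part of this in its values was not tested. Control replicate 1 had the largest Gapdh 3′ minus 5′ difference of the 9 arrays, a measure of RNA or labelling quality, at 2.56 on the log2 scale.

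The control probe sets of the arrays moved with the comparison. The hybridization controls, bacterial transcripts added before hybridization, averaged 9.73 ± 0.32 on the 3-day arrays and 10.85 ± 0.29 on the control arrays (SD, n = 4 and 5), with no overlap. Poly-A controls averaged 5.17 ± 0.75 on the 3-day arrays and 6.88 ± 0.43 on the control arrays. Their highest 3-day value was 6.19 and their lowest control value 6.26, so these did not overlap either. The Gapdh difference was 0.65 ± 0.18 on the 3-day arrays and 1.61 ± 0.57 on the control arrays, again with no overlap. With the mean hybridization control as a covariate, 188 genes were called instead of 7168, with 77 higher and 111 lower at 3 days. Of the 152 called genes named here, 23 remained called, all 152 kept their direction, and a median of 78.5% of the change was kept while the standard errors were 1.59 times as large. Since the hybridization controls did not overlap, group and hybridization level cannot be told apart, also for the 23 genes that remained called. Nor can group be told apart from the poly-A level or the Gapdh difference. The share that any technical difference has in these results was not tested.

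**Figure D1:**
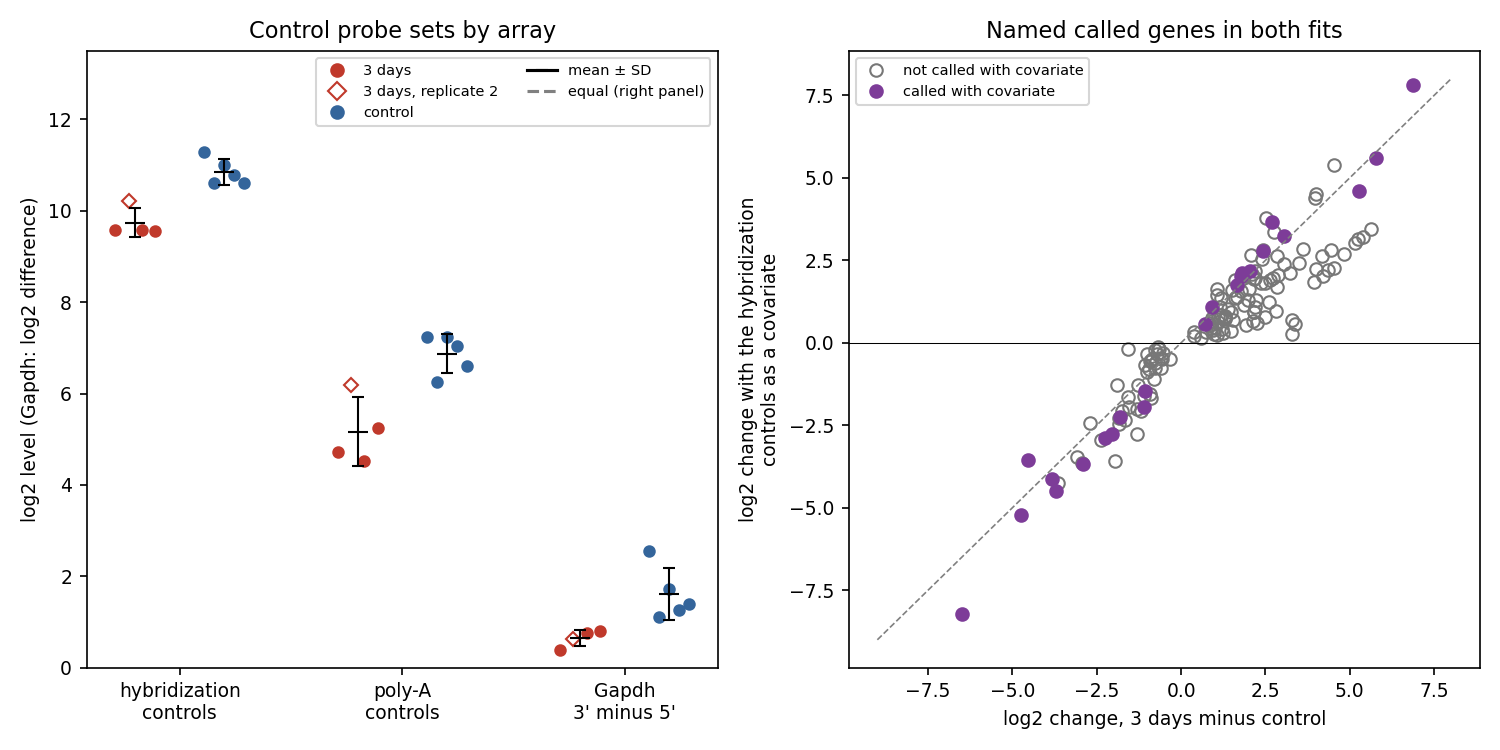
Left, log2 level of the hybridization and poly-A control probe sets and the log2 Gapdh 3′ minus 5′ difference on each array, with group means ± SD, for the 3-day arrays (open diamond, replicate 2) and the control arrays. Right, the log2 change of the 152 named called genes without the covariate (horizontal) and with the hybridization controls as a covariate (vertical), where the 23 filled points are genes called in both fits and the dashed line marks equal changes.

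At 3 days 7168 of 18194 genes, 39.4%, were called against control. Of these 3951 were higher and 3217 lower at 3 days, 21.7% and 17.7% of all genes tested. Every count of list members called against control is to be read beside these shares. The changes were unequal in size, for 1293 of the called genes were at least 2-fold higher and 229 at least 2-fold lower, together 8.37% of all genes. Of the lower calls 1128 had both group means under the floor, against 177 of the higher calls. A further quantile normalization turned the balance, with 44.9% of calls higher against 55.1% without it. Among named genes 130 of the 152 called stayed called when any single 3-day or control array was left out, and exceptions are given beside their values.

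**Figure D2:**
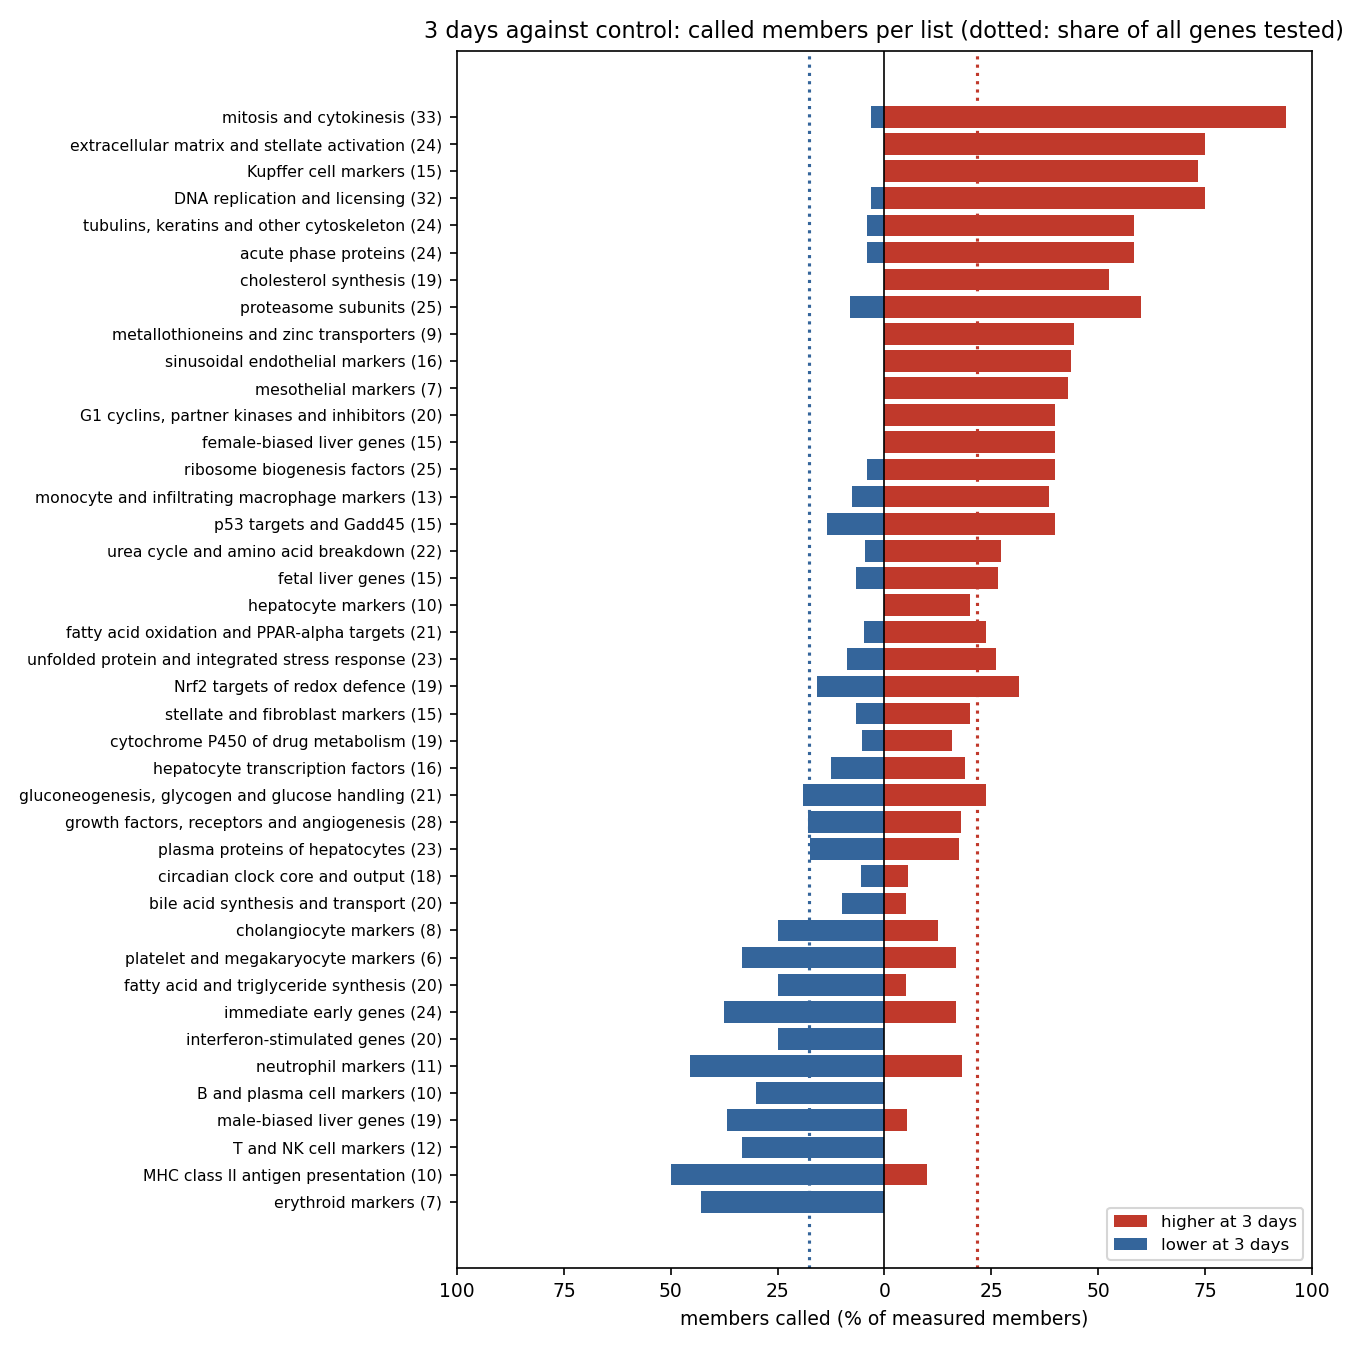
Called members of each of 41 gene lists, in percent of measured members (number in brackets), with members higher at 3 days to the right and members lower at 3 days to the left of 0. The dotted lines mark the shares among all genes tested, 21.7% higher and 17.7% lower; mitosis, extracellular matrix, Kupffer cell and DNA replication lists reach farthest to the right.

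Genes of mitosis and cytokinesis rose together at 3 days. Of 33 measured members 31 were higher at 3 days than in control and 1 was lower, against 21.7% and 17.7% of all genes, and the median change was 3.36, against −0.02 for all genes. The count of 31 was the same whichever single array was left out, and with the hybridization covariate it was 0. The list mean was 6.95, 4.75, 7.49 and 7.77 on the 3-day arrays in replicate order and 3.52 to 3.74 on the control arrays, so even replicate 2 lay above every control.

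The promoters of 6 of these genes are shown because CHR and CCAAT elements, short sequences known from promoters of genes that peak in G2 and M phase, lie close to their starts. Each line gives the 120 bases directly before a RefSeq start of the gene (GRCm38.p6), 5′ to 3′ on the strand of the gene. TTTGAA (CHR) and CCAAT on either strand are in capitals. For a gene with several starts, a start with both motifs before it was taken where there was one. Prc1 has another start, with CCAAT but no TTTGAA before it.
Ccnb2, chr9:70421555-70421674, minus strand: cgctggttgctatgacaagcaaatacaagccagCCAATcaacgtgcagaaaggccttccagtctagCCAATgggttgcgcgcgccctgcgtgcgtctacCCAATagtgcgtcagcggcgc
Cdc20, chr4:118437344-118437463, minus strand: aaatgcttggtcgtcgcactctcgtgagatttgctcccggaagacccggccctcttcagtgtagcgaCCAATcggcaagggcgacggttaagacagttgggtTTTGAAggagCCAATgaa
Cdk1, chr10:69352913-69353032, minus strand: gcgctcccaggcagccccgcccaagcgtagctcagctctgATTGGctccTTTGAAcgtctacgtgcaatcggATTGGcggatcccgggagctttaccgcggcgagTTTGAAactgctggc
Ube2c, chr2:164769809-164769928, plus strand: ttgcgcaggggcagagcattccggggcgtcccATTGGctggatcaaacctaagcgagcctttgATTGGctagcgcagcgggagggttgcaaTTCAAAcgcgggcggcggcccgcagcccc
Prc1, chr7:80294356-80294475, plus strand: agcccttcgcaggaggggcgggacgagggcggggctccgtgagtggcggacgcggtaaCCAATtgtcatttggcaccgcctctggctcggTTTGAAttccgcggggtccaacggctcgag
Top2a, chr11:99024190-99024309, minus strand: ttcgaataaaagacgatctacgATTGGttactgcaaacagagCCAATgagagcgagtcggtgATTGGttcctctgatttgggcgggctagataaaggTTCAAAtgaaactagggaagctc
Matches were counted for any RefSeq start of a gene, in the part of each 300-base promoter window that lies before the start. There 11 of the 28 mitosis list members with a promoter sequence held TTTGAA (39.3%), 21 held CCAAT (75%) and 9 held both (32.1%). Among the 14453 tested genes with a promoter sequence the shares were 14.1%, 39.4% and 5.09%, and among 27 members of the DNA replication list 11.1%, 63% and 7.41%. A match is a description of these letters and not a measured binding site, and the 6 promoters were chosen with the matches and changes known.

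Ccnb2 encodes cyclin B2, a partner of Cdk1 at entry into mitosis, and its promoter above holds 3 CCAAT motifs and no TTTGAA within the 120 bases. It measured 9.10, 5.86, 9.79 and 10.14 on the 3-day arrays and 3.48, 2.76, 3.00, 2.69 and 3.63 on the control arrays. Every 3-day array exceeded every control, replicate 2 by the smallest margin. The change was 5.61 ± 0.72 (adjusted p = 1.13e-07), at least 25.6-fold, and 6.57 without replicate 2.

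Cdk1, the mitotic kinase itself, measured 9.72, 6.36, 10.05 and 10.33 at 3 days and 4.86, 4.57, 4.33, 4.46 and 4.64 in control. Its change was 4.55 ± 0.65 (adjusted p = 7.31e-07), a 23.4-fold difference, and 5.46 without replicate 2. The control values lay only just above the floor. Mki67, the source of the Ki-67 proliferation antigen, measured 8.87, 5.12, 9.28 and 9.42 at 3 days and 3.42, 3.61, 3.37, 3.15 and 3.18 in control. It rose by 4.83 ± 0.76 (adjusted p = 3.36e-06), at least 17.5-fold, and by 5.85 without replicate 2, whereas with the hybridization covariate the change was 2.69 (adjusted p = 0.247).

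Cdc20 and Ube2c serve the anaphase-promoting complex, which marks cyclin B for destruction. Cdc20 measured 9.51, 7.09, 10.58 and 10.79 at 3 days and 3.67 to 4.66 in control, a change of 5.15 ± 0.82 (adjusted p = 4.28e-06). Ube2c measured 8.52, 6.11, 9.53 and 9.70 at 3 days and 2.45 to 3.65 in control, a change of 5.26 ± 0.71 (adjusted p = 3.12e-07). Both groups were again fully apart, with replicate 2 nearest to control.

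Birc5, encoding survivin of the chromosomal passenger complex, rose by 5.38 ± 0.72, and Top2a, the topoisomerase that untangles sister chromatids, by 3.94 ± 0.65. Prc1, which bundles the microtubules of the spindle midzone, rose by 3.48 ± 0.49, and the kinesin Kif20a by 4.00 ± 0.52. Plk1, a kinase of spindle formation, measured 6.99, 5.14, 8.35 and 8.75 at 3 days and 4.27 to 4.76 in control, so replicate 2 lay just above the highest control. Ccna2, encoding cyclin A2 of S and G2 phase, rose by 4.17 ± 0.65. The change of Plk1 was 2.84 ± 0.48 (adjusted p = 9.86e-06).

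Esco2, which acetylates cohesin during S phase, was among the 12 largest rises without being a member of the mitosis list. Esco2 measured 6.98, 2.76, 6.95 and 7.54 at 3 days and 1.58 to 1.79 in control, so that replicate 2 was still under the floor. Its change was 4.37 ± 0.78 (adjusted p = 2.63e-05), at least 4.04-fold. Stmn1, which destabilises microtubules, measured 11.23, 8.22, 11.33 and 11.55 at 3 days and 6.26 to 6.51 in control, an 18.3-fold difference (adjusted p = 3.34e-06).

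Foxm1, the transcription factor that drives many G2 and M phase genes, was the lower member of the list, at 4.86, 4.84, 4.91 and 4.35 at 3 days and 5.08 to 5.45 in control. The change was −0.55 ± 0.15 (adjusted p = 0.00331), but the 4 probe sets of Foxm1 gave changes of −0.83 to 1.21, with 1 called higher and 2 called lower, so its direction is uncertain. Tpx2, a spindle assembly factor, changed by −0.51 ± 0.25 (adjusted p = 0.0926) and was not called, and 2 of its 4 probe sets were called higher.

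**Figure D3:**
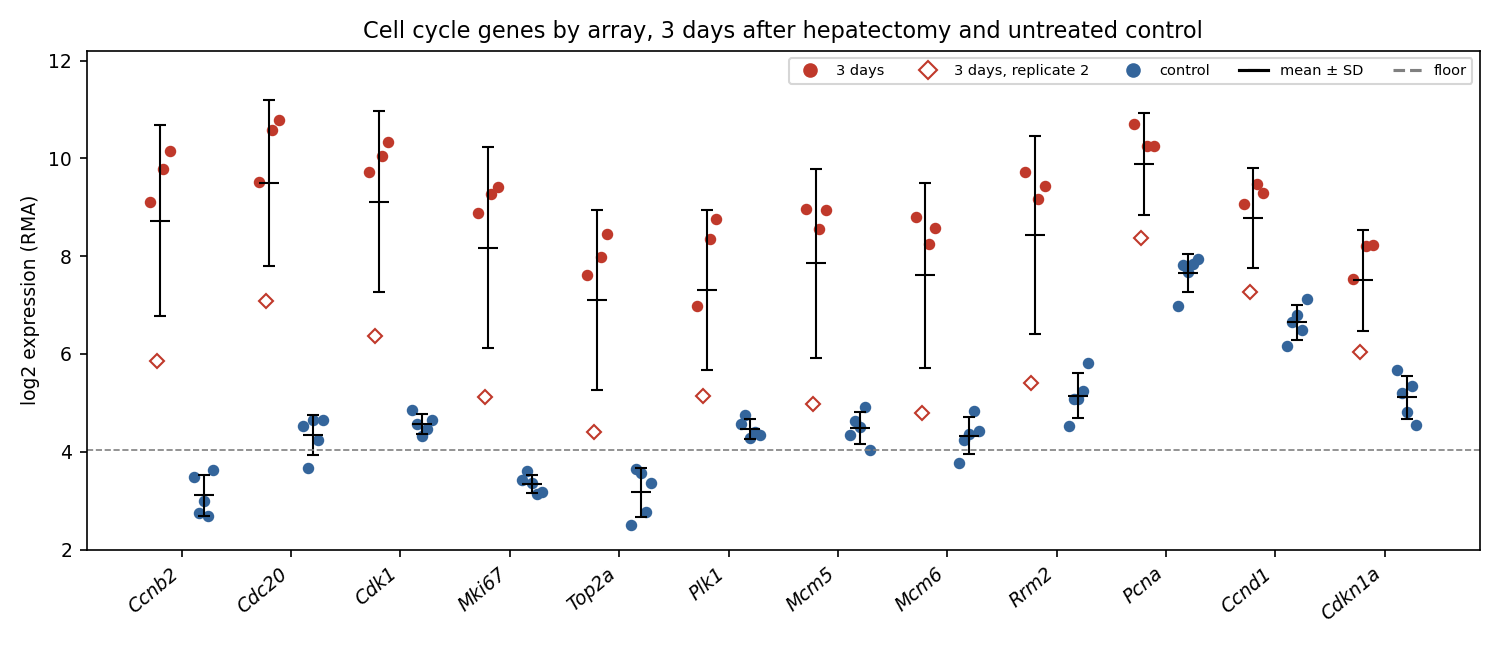
Log2 expression of 12 cell cycle genes on each array, for the 3-day arrays in red (open diamond, replicate 2) and the control arrays in blue, with group means ± SD and the floor of the control group as a dashed line. The mitotic genes Ccnb2 to Plk1 do not overlap between groups, whereas replicate 2 falls to the control level for the S phase genes Mcm6 and Rrm2.

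DNA replication genes also rose, but with replicate 2 near control. Of 32 measured members 24 were higher at 3 days and 1 lower, with a median change of 1.37. Of the 32 members 7 had groups that did not overlap, against 29.1% of all genes. Without replicate 2 the counts were 28 higher and 0 lower, without replicate 4 they were 20 higher, and with the hybridization covariate 0 were called. The list mean was 7.24, 5.21, 6.94 and 7.22 on the 3-day arrays and 5.01 to 5.31 on the control arrays.

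Mcm6, a subunit of the replicative helicase, measured 8.79, 4.80, 8.25 and 8.57 at 3 days and 3.78, 4.24, 4.36, 4.83 and 4.42 in control. Replicate 2 lay within the control range and the other 3-day arrays far above it. The change was 3.28 ± 0.74 (adjusted p = 0.000481) with all arrays, 4.22 without replicate 2 and 0.27 with the hybridization covariate. Mcm5, another helicase subunit, changed by 3.37 ± 0.75, a 10.3-fold difference, and by 4.33 without replicate 2.

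Rrm2, the regulated subunit of ribonucleotide reductase, measured 9.73, 5.41, 9.16 and 9.44 at 3 days and 4.53 to 5.81 in control, with a change of 3.29 ± 0.81 (adjusted p = 0.00129). Uhrf1, which carries DNA methylation marks through replication, rose by 2.48 ± 0.71, at least 2.19-fold. Pcna, the sliding clamp of the DNA polymerases, was the exception among these in that replicate 2 stayed above control. It measured 10.70, 8.36, 10.25 and 10.26 at 3 days and 6.98 to 7.94 in control, a 4.74-fold difference (adjusted p = 4.16e-06). Fen1, a flap endonuclease, was the lower member at −0.67 ± 0.23 (adjusted p = 0.0201), and it lost the call without replicate 2 (change −0.56) or without control replicate 1 (change −0.60). Its 2 probe sets were called in opposite directions.

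Among G1 cyclins, partner kinases and inhibitors 8 of 20 members rose and 0 fell. Ccnd1, encoding cyclin D1, measured 9.07, 7.26, 9.48 and 9.29 at 3 days and 6.17 to 7.12 in control, a 4.38-fold difference (adjusted p = 0.00395). Cdkn1a, encoding the kinase inhibitor p21, measured 7.54, 6.03, 8.21 and 8.24 at 3 days and 4.54 to 5.66 in control, a 5.26-fold difference (adjusted p = 0.00109). A cyclin and an inhibitor thus stood above control on the same arrays. The kinase inhibitor Cdkn2c and the retinoblastoma relative Rbl1 also rose, by 2.17 ± 0.38 and 2.80 ± 0.50, and Rbl1 measured 4.06 on replicate 2 against 7.04 to 7.25 on the other 3-day arrays.

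Of the targets of p53, the factor that answers DNA damage, 6 of 15 were higher and 2 lower, against 21.7% and 17.7% of all genes. Mdm2, the ubiquitin ligase of p53, rose by 0.91 ± 0.17 (adjusted p = 3.61e-05) and Zmat3 by 1.31 ± 0.19 (adjusted p = 1.21e-06). Bbc3, which promotes cell death, fell by 0.71 on the log2 scale (adjusted p = 0.000449). Its values of 5.03 to 5.58 at 3 days and 5.51 to 6.42 in control overlapped.

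Acute phase proteins, which hepatocytes secrete in inflammation, rose in 14 of 24 members and fell in 1, with a median change of 1.04. The list mean was 10.59, 11.70, 10.53 and 10.71 at 3 days and 9.09, 10.17, 9.19, 9.46 and 9.21 in control. Replicate 2 was the highest 3-day array and replicate 2 the highest control. Leaving out single arrays gave 12 to 15 higher members, and with the hybridization covariate 3 were higher.

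Lcn2, encoding the iron-siderophore binding protein lipocalin 2, had the largest rise of the called genes whose groups did not overlap. It measured 10.42, 12.30, 10.32 and 10.69 at 3 days and 3.06, 6.39, 4.05, 3.88 and 2.88 in control. Control replicate 2 was the highest control and still far below the 3-day arrays. The change was 6.88 ± 1.02 (adjusted p = 1.24e-06), a 118-fold difference, and it remained called with the hybridization covariate (change 7.82, adjusted p = 0.0157).

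Saa1, a serum amyloid A of high-density lipoprotein, measured 12.17, 13.31, 12.53 and 12.31 at 3 days and 7.14, 11.97, 8.10, 8.44 and 7.40 in control. Control replicate 2 thus nearly reached the 3-day range. The change was 3.97 ± 0.84 (adjusted p = 0.000224), and the near-identical Saa2, which may share probes with it, changed by 4.52 ± 1.06. Orm2, an orosomucoid, rose by 4.01 ± 0.77, and Apcs, the serum amyloid P component, by 2.42 ± 0.40 (adjusted p = 8.2e-06). Hamp, which encodes the iron hormone hepcidin, was the member that fell, at 10.94, 12.11, 10.33 and 10.90 at 3 days and 12.42 to 12.79 in control. Its change of −1.56 ± 0.53 (adjusted p = 0.0177) was not called without 3-day replicate 3 (change −1.32).

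Both metallothioneins rose steeply and evenly. Mt2 measured 12.24, 12.18, 12.08 and 12.40 at 3 days and 5.56, 8.25, 5.73, 5.82 and 6.86 in control, a 55.1-fold difference (adjusted p = 3.44e-11). Mt1 measured 13.06 to 13.21 at 3 days and 6.55 to 10.28 in control, a 39-fold difference (adjusted p = 2.78e-11). For these genes the 3-day arrays, replicate 2 included, differed by less than the controls did among themselves. The zinc exporter Slc30a1 rose by 1.29 ± 0.26, and 4 of 9 members of the metallothionein and zinc transporter list rose and 0 fell.

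Immediate early genes, which respond within minutes to growth and stress signals, were more often lower than higher, with 9 of 24 lower and 4 higher at 3 days. Jun, part of the AP-1 factor, measured 6.99, 5.57, 6.56 and 6.76 at 3 days and 7.48 to 8.66 in control, a 3.6-fold difference (adjusted p = 0.00113). Zfp36, which destabilises cytokine mRNAs, fell by 1.80 on the log2 scale (adjusted p = 3.61e-05) and Dusp1, a phosphatase of MAP kinases, by 1.74 (adjusted p = 0.000255). Nr4a1, an orphan nuclear receptor, was at 5.22 to 5.76 at 3 days and 6.29 to 8.96 in control, and its change of −1.90 ± 0.59 lost the call without control replicate 1 (change −1.48). Klf6 and Ier5 went the other way, with changes of 1.87 ± 0.42 and 1.66 ± 0.22.

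Male-biased liver genes fell. Of 19 measured members 7 were lower at 3 days and 1, the growth factor Igf1, was higher by 0.37 ± 0.10, with a median change of −0.60. As a list they averaged 9.02, 8.76, 8.98 and 8.81 at 3 days and 9.84 to 10.38 in control. Leaving out single arrays gave 5 to 7 lower members, and the hybridization covariate 2.

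Hsd3b5, a steroid reductase of male mouse liver, had the deepest fall of the called genes whose groups did not overlap. It measured 5.71, 3.12, 5.31 and 4.54 at 3 days and 10.92, 11.22, 11.06, 11.50 and 11.13 in control. The change was −6.50 ± 1.25 (adjusted p = 6.92e-05), a 90.3-fold difference, and it remained called with the hybridization covariate (change −8.22, adjusted p = 0.0332).

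Elovl3, which elongates very long fatty acids, measured 7.14, 5.83, 8.02 and 7.60 at 3 days and 11.36, 11.14, 11.07, 11.32 and 9.02 in control, a 12.4-fold difference (adjusted p = 0.0025). Cyp4a12a, a fatty acid hydroxylase, measured 6.63 to 8.60 at 3 days and 10.17 to 10.80 in control, with a change of −3.08 ± 1.15 (adjusted p = 0.0305). It lost the call without 3-day replicate 1, 3 or 4 or control replicate 1, with changes of −2.82 to −3.07. The organic anion carrier Slco1a1 changed by −1.95 ± 0.74 (adjusted p = 0.0331) and lost the call in 4 of the single-array fits, without 3-day replicate 1, 2 or 4 or control replicate 5, with changes of −1.51 to −2.05.

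Female-biased liver genes rose in 6 of 15 measured members and fell in 0. Cyp17a1, a steroid 17-hydroxylase, measured 8.58, 9.46, 8.50 and 8.56 at 3 days and 5.29 to 6.62 in control, a 7.12-fold difference (adjusted p = 8.02e-05). Cyp4a14, a fatty acid hydroxylase that PPAR-alpha also induces, measured 10.42 to 11.89 at 3 days and 6.18 to 8.71 in control, a 9.28-fold difference (adjusted p = 0.00107). The peroxisomal genes Abcd2 and Acot3 rose by 2.22 ± 0.46 and 2.16 ± 0.56. All 15 female-biased members together averaged 5.32 to 5.43 on the 3-day arrays and 4.13 to 4.55 on the control arrays.

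Serpina12, encoding the serpin vaspin, measured 4.70, 4.91, 4.23 and 4.92 at 3 days and 9.12 to 9.76 in control, a 27-fold difference (adjusted p = 3.51e-09). Serpina4-ps1, annotated as a pseudogene of a serpin, fell by 4.53 and the glucuronosyltransferase gene Ugt2b38 by 3.71 on the log2 scale. Mup10, a major urinary protein, and Sult2a8, a sulfotransferase, changed by −2.94 ± 0.72 and −2.37 ± 0.82. Major urinary protein and Ugt2b genes are near-identical copies, so probe sets of Mup10 and Ugt2b38 may read several of them. Hectd2os, a transcript annotated opposite Hectd2, and Rflna also fell, with changes of −3.83 ± 0.64 and −2.71 ± 0.41. Rgs16, a regulator of G protein signalling, measured 3.88 to 4.60 at 3 days and 5.31 to 8.35 in control (change −2.91 ± 0.54).

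**Figure D4:**
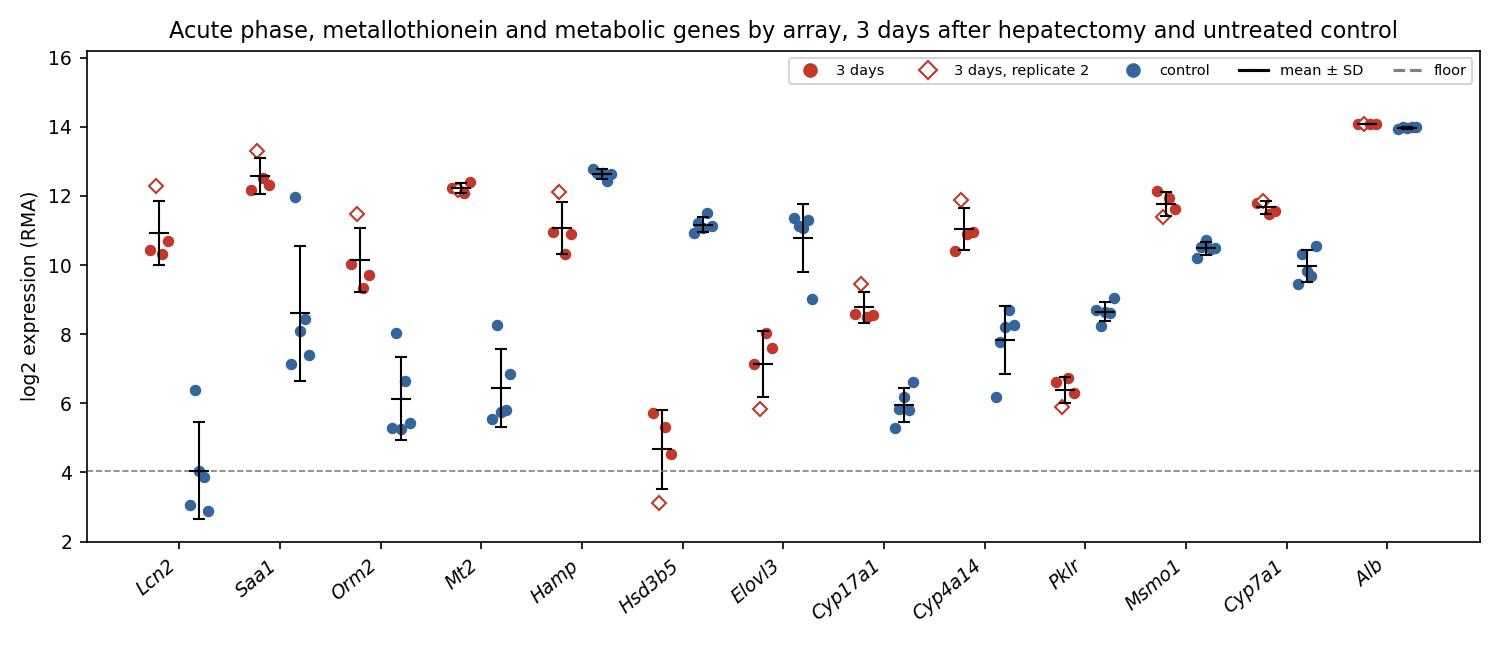
Log2 expression of acute phase, metallothionein and metabolic genes on each array, for the 3-day arrays in red (open diamond, replicate 2) and the control arrays in blue, with group means ± SD and the floor of the control group as a dashed line. Hsd3b5 is about 6.5 log2 units lower and Lcn2 6.88 higher at 3 days, whereas Alb is at 14.07 and 13.97.

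Cholesterol synthesis genes rose by modest amounts, with 10 of 19 measured members higher at 3 days and 0 lower. The median change was 0.84. Msmo1, a sterol methyl oxidase, measured 12.16, 11.38, 11.94 and 11.62 at 3 days and 10.20 to 10.73 in control, a 2.45-fold difference (adjusted p = 0.00196). Sqle, squalene epoxidase, measured 10.03 to 10.36 at 3 days and 8.78 to 9.24 in control (change 1.20 ± 0.23), and Cyp51, the lanosterol demethylase, changed by 1.18 ± 0.23. Pmvk, a kinase of the mevalonate pathway, changed by 1.23 ± 0.35, and replicate 2 at 7.75 lay within its control range. Leaving out single arrays gave 7 to 12 higher members, and the hybridization covariate 0.

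Fatty acid and triglyceride synthesis genes were lower in 5 of 20 members and higher in 1, against 17.7% and 21.7% of all genes. Mlxipl, encoding the glucose-responsive factor ChREBP, measured 8.46, 7.40, 8.90 and 7.83 at 3 days and 9.28 to 10.44 in control, a 2.97-fold difference (adjusted p = 0.00045). Dgat2, which makes triglyceride, changed by −1.08 ± 0.24 (adjusted p = 0.000368), whereas Dgat1 with the same reaction changed by 0.73 ± 0.19 (adjusted p = 0.00193). Scd1, the stearoyl-CoA desaturase, measured 12.55, 9.96, 13.24 and 12.39 at 3 days and 13.23 to 13.49 in control, and its change of −1.30 ± 0.50 was −0.61 without replicate 2 and then not called. Scd1 also lost the call without control replicate 1, 3 or 5, with changes of −1.26 to −1.31. The count lower in this list was 2 without 3-day replicate 2 or control replicate 3, and 3 without control replicate 5.

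Fatty acid oxidation and PPAR-alpha target genes rose in 5 of 21 members and fell in 1, near the shares of all genes. Hadhb, a subunit of the mitochondrial trifunctional protein, measured 10.34 to 10.71 at 3 days and 8.17, 9.87, 9.40, 9.93 and 9.56 in control (change 1.21 ± 0.19). The medium-chain dehydrogenase Acadm changed by 0.82 ± 0.11 and the fatty acid carrier Cd36 by 1.49 ± 0.34. Ppara, the receptor that controls these genes, was the lower member, at −0.90 ± 0.33 (adjusted p = 0.0278), and lost the call without 3-day replicate 2 or 4 or control replicate 3 or 5, with changes of −0.77 to −0.87.

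In glucose metabolism 5 of 21 members rose and 4 fell, near the shares of all genes, 21.7% and 17.7%. Pklr, the pyruvate kinase of hepatocytes, measured 6.62, 5.91, 6.72 and 6.29 at 3 days and 8.25 to 9.04 in control, a 4.81-fold difference (adjusted p = 1e-05) that remained called with the hybridization covariate. Gckr, which holds glucokinase in the nucleus, changed by −1.02 ± 0.25. G6pc, which releases glucose from its phosphate, changed by −1.65 ± 0.46 and by −1.08 without replicate 2, then not called. Ppargc1a, a coactivator of gluconeogenesis and mitochondria, was 2.88-fold higher (adjusted p = 0.000443). The count higher was 3 without 3-day replicate 1, 2 or 4 or without control replicate 1.

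Bile acid genes were for the most part not called, with 1 of 20 higher and 2 lower. Cyp7a1, whose enzyme limits the rate of bile acid synthesis, measured 11.80, 11.85, 11.48 and 11.56 at 3 days and 9.44, 10.33, 9.82, 9.69 and 10.55 in control. The groups did not overlap, but the change of 1.70 ± 1.04 was not called (adjusted p = 0.192). In that fit the spread comes from all 12 groups of the time course, and in a fit of only the groups compared the adjusted p of Cyp7a1 was 0.000314. With the hybridization covariate its change was −0.39. Abcc4, an exporter of bile acids and drugs, rose by 1.06 ± 0.33, at least 1.85-fold, and lost the call without 3-day replicate 1 (change 0.82). Its relative Abcc3 changed by −0.76 ± 0.29 and lost the call in 6 single-array fits, without 3-day replicate 1, 3 or 4 or control replicate 2, 3 or 4, with changes of −0.62 to −0.79.

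Of 19 cytochrome P450 genes of drug metabolism 3 rose and 1 fell, against 21.7% and 17.7% of all genes. Cyp3a13 measured 10.26, 11.97, 10.21 and 10.38 at 3 days and 8.21 to 9.83 in control, a 3.06-fold difference (adjusted p = 0.000147). Cyp2d10 was lower at 11.53 to 12.34, against 12.57 to 12.85 in control (change −0.86 ± 0.12). Cyp2b10 changed by 1.91 ± 0.75 (adjusted p = 0.0391) and lost the call in 6 single-array fits, without 3-day replicate 1, 2 or 4 or control replicate 1, 3 or 5, with changes of 1.73 to 1.94. Cyp2e1 was at 13.08 ± 0.18 at 3 days and 13.39 ± 0.09 in control and was not called (adjusted p = 0.132), but without the 7 doubted arrays named in the next sentence it was called lower (change −0.34, adjusted p = 0.00731). The count of lower members depended on the fit, with 1 over all arrays but 10 in a fit of only the groups compared, and likewise 10 without 7 arrays of the time course (control replicate 1 and 6 from other times) that earlier work on these data had doubted. Without 3-day replicate 1 or 4 or control replicate 1 the count higher was 1.

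Of the amino acid and urea cycle genes 6 of 22 were higher and 1 lower, the share higher again near the 21.7% of all genes. Got1, the cytosolic aspartate aminotransferase, measured 11.05 to 11.38 at 3 days and 9.17 to 10.05 in control, a 3.15-fold difference (adjusted p = 1.11e-06). In the transsulfuration pathway the first enzyme and the one after it went apart. Cbs fell by 0.95 on the log2 scale (adjusted p = 0.00134), whereas Cth rose by 0.86 ± 0.28 (adjusted p = 0.0124).

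Plasma proteins of hepatocytes rose in 4 of 23 members and fell in 4, near the shares of all genes, 21.7% and 17.7%. Alb, encoding albumin, averaged 14.07 ± 0.006 at 3 days and 13.97 ± 0.027 in control (SD, n = 4 and 5), close to the top of the scale, and was not called (change 0.10 ± 0.07, adjusted p = 0.221). Apoa4, an apolipoprotein, measured 11.47, 12.51, 11.18 and 11.14 at 3 days and 9.12 to 9.85 in control, a 4.15-fold difference (adjusted p = 8.47e-06). Ahsg, encoding fetuin A, rose by 0.70 ± 0.08 and stayed called with the hybridization covariate. Most single-array fits moved these counts. The count higher was 2 without 3-day replicate 1 or 4 or control replicate 1 or 5, and the count lower was 2 without 3-day replicate 1 or 4 or control replicate 2, 3, 4 or 5.

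Among hepatocyte transcription factors Cebpa, which restrains proliferation, measured 8.40, 8.91, 8.21 and 8.35 at 3 days and 9.59 to 10.24 in control, a 2.93-fold difference (adjusted p = 0.000785). Its relative Cebpd, induced in the acute phase, measured 6.61 to 7.82 at 3 days and 4.89 to 6.30 in control, a 3.03-fold difference (adjusted p = 0.00307). The list had 3 of 16 higher and 2 lower, against 21.7% and 17.7% of all genes. Onecut2 was the other lower member at −0.77 ± 0.20.

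Proteasome subunits rose in 15 of 25 members and fell in 2, with small changes whose median was 0.40. Psmc1 measured 9.07, 9.09, 9.14 and 9.26 at 3 days and 7.04, 8.62, 8.32, 8.64 and 8.22 in control, a 1.96-fold difference (adjusted p = 2.19e-05). Psmb3 was the larger of the falls at −0.59 ± 0.14, although its 2 probe sets were called in opposite directions. Ribosome biogenesis factors rose in 10 of 25 members and fell in 1, led by Nop58 at 1.38 ± 0.34 and Nip7 at 1.11 ± 0.21, with Rrp9 lower by 0.52. With the hybridization covariate both lists had 0 called.

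Of the unfolded protein and integrated stress response list 6 of 23 rose and 2 fell, against 21.7% and 17.7% of all genes. The count higher was 2 without 3-day replicate 3 or control replicate 1, 3 without 3-day replicate 4 and 0 after a further quantile normalization. Asns, asparagine synthetase, was 2.87-fold higher (adjusted p = 0.0181) and lost the call without 3-day replicate 4 (change 1.38), and the chaperone Calr fell by 0.70 on the log2 scale (adjusted p = 0.00236). Nrf2 targets had 6 of 19 higher and 3 lower, beside the same shares of all genes. Nqo1, a quinone reductase, measured 7.08, 6.08, 7.09 and 7.65 at 3 days and 4.57 to 5.26 in control, a 4.55-fold difference (adjusted p = 4.2e-07), and the sulfiredoxin Srxn1 rose by 1.30 ± 0.30. The glutathione transferase genes Gstm1 and Gstm4 were among the lower members, with changes of −1.11 ± 0.33 and −1.18 ± 0.42, and Gstm4 lost the call without replicate 2 (change −0.91). Without replicate 2 the count of lower Nrf2 targets was 1.

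Extracellular matrix and stellate activation genes rose in 18 of 24 members and fell in 0, with a median change of 1.08. These genes averaged 7.30, 7.18, 7.09 and 7.16 at 3 days and 5.84 to 6.25 in control. In contrast to the cell cycle genes replicate 2 did not stand apart here. Single-array fits gave 13 to 18 higher members, the lowest without 3-day replicate 1, and the hybridization covariate 1.

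Col5a2, a chain of type V collagen, measured 7.39, 6.89, 6.99 and 7.15 at 3 days and 4.22, 4.25, 4.32, 4.54 and 4.60 in control. The groups were more than 2 log2 units apart, a 6.58-fold difference (adjusted p = 5.11e-07). Lum, the collagen-binding proteoglycan lumican, measured 7.96 to 8.60 at 3 days and 4.81 to 6.45 in control, a 5.2-fold difference (adjusted p = 4.64e-07). The fibrillar collagen genes Col3a1 and Col1a2 rose by 2.17 ± 0.50 and 2.09 ± 0.42, and Timp1, an inhibitor of matrix proteases, by 1.88 ± 0.48.

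Col1a1 and the smooth muscle actin Acta2, a mark of activated stellate cells, were less secure. Col1a1 measured 6.00, 5.65, 5.68 and 6.27 at 3 days and 5.53, 4.01, 5.17, 4.60 and 4.90 in control, and its change of 1.06 ± 0.41 (adjusted p = 0.0388) lost the call without 3-day replicate 1, 3 or 4 or control replicate 2, 4 or 5, with changes of 0.85 to 1.13. Acta2 changed by 1.10 ± 0.44 (adjusted p = 0.0451) and lost the call without 3-day replicate 1, 2 or 3 or control replicate 1, 2, 3 or 4, with changes of 0.93 to 1.13.

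Cytoskeleton genes rose in 14 of 24 members and fell in 1. S100a6, a calcium-binding protein, measured 7.03, 7.24, 5.99 and 7.01 at 3 days and 3.30 to 4.62 in control, at least a 6.83-fold difference (adjusted p = 5.59e-07). Vim, encoding vimentin of mesenchymal cells, rose by 1.87 ± 0.33, and Anxa2, a membrane-binding annexin, by 1.98 ± 0.35. Tubb6 rose by 3.06 ± 0.45, but its other probe set was called lower. Tuba4a was the lower member at −0.61 ± 0.16.

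Of the fetal liver genes 4 of 15 were higher and 1 lower, the share higher being near the 21.7% of all genes. Afp, encoding alpha-fetoprotein, measured 7.61, 6.12, 5.94 and 7.51 at 3 days and 3.07, 3.12, 2.83, 3.94 and 2.95 in control, at least a 6.73-fold difference (adjusted p = 2.46e-07). Tff3, a trefoil peptide, measured 7.46 to 7.94 at 3 days and 4.66 to 5.60 in control (change 2.49 ± 0.50). The RNA-binding protein gene Igf2bp1 was the lower member at −0.76 ± 0.22. Scd2, a stearoyl-CoA desaturase, measured 7.59, 4.86, 7.58 and 5.96 at 3 days and 3.82 to 4.02 in control, and its 3 probe sets included 1 called higher and 1 called lower.

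Growth factor and angiogenesis genes had 5 of 28 higher and 5 lower, near the shares of all genes, 21.7% and 17.7%. The angiopoietin receptor Tek rose by 1.00 ± 0.30 and the PDGF receptor Pdgfra by 1.06 ± 0.31. Vegfa, the endothelial growth factor, was lower at 6.48 to 7.21, against 7.44 to 8.33 in control (change −0.89 ± 0.18, adjusted p = 0.000148). Igfbp3, a binding protein of insulin-like growth factors, changed by −1.06 ± 0.36 and lost the call without 3-day replicate 1 or 3 (changes −0.89 and −0.82). Rspo3, which amplifies Wnt signals, rose by 0.92 ± 0.28 and lost the call without 3-day replicate 4 (change 0.78), and its 2 probe sets were called in opposite directions. The count lower was 3 without 3-day replicate 1 or 4. Core clock genes were called once in each direction among 18.

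Of the interferon-stimulated genes 5 of 20 were lower and 0 higher, the share lower being near the 17.7% of all genes. Irf7, a regulator of interferon production, measured 5.61, 4.96, 5.61 and 5.30 at 3 days and 6.26 to 6.63 in control, a 2.12-fold difference (adjusted p = 0.00387). Ifit1, which binds viral RNA, fell at least 3.41-fold (adjusted p = 0.00446). The chemokine gene Cxcl9 changed by −1.31 ± 0.48 and lost the call without 3-day replicate 2 or 4 (changes −1.16 and −1.31). Without replicate 2 the counts were 3 lower and 1 higher.

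Of the MHC class II list 5 of 10 members fell and 1 rose. Cd74, the invariant chain, measured 5.18, 4.95, 5.01 and 5.16 at 3 days and 5.59 to 6.14 in control, a 1.73-fold difference (adjusted p = 0.00261). H2-Aa changed by −0.92 ± 0.35 and lost the call without 3-day replicate 2 or 4 or control replicate 1, 3 or 5, with changes of −0.78 to −0.93. Ctss, the cathepsin that trims the invariant chain and that macrophages also express, rose by 1.78 ± 0.41. The count lower was 2 without 3-day replicate 4, and 3 without 3-day replicate 2 or control replicate 1 or 3.

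Cell type markers were read next. In whole liver RNA more cells of a type and more RNA per cell cannot be told apart. Hepatocyte markers checked the tissue label, at a list mean of 12.16 to 12.26 on the 3-day arrays and 12.12 to 12.28 on the control arrays, with 2 of 10 members higher and 0 lower. Asgr1, a receptor of hepatocytes for desialylated glycoproteins, rose by 0.58 ± 0.12.

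Markers of Kupffer cells, the resident macrophages of liver, rose in 11 of 15 members and fell in 0, with a median change of 1.25. The list mean was 7.04, 6.68, 6.00 and 6.52 at 3 days and 4.59, 5.35, 5.33, 5.43 and 5.25 in control, with no overlap. Vsig4, a complement receptor, measured 7.72, 7.45, 6.12 and 6.99 at 3 days and 3.49 to 4.88 in control, a 6.27-fold difference (adjusted p = 0.000135). The scavenger receptors Marco and Cd163 rose by 2.42 ± 0.53 and 2.00 ± 0.48, and C1qb, of the first complement component, by 2.18 ± 0.49. Single-array fits gave 8 to 12 higher members, the lowest without 3-day replicate 1, and the hybridization covariate 0.

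Monocyte and infiltrating macrophage markers rose in 5 of 13 members and fell in 1. Lgals3, encoding galectin-3, measured 7.10, 6.55, 6.12 and 7.31 at 3 days and 3.47 to 4.23 in control, at least a 6.63-fold difference (adjusted p = 7e-06). Lyz2, a lysozyme, rose by 2.18 ± 0.50 and S100a4 by 1.81 ± 0.35. Chil3, a chitinase-like protein, measured 5.72, 7.54, 3.30 and 4.89 at 3 days and 2.68 to 2.99 in control, and its change of 2.53 ± 0.88 lost the call without 3-day replicate 1 (change 2.41) or 2 (change 1.80).

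Neutrophil markers split, with 2 of 11 higher and 5 lower. S100a8 and S100a9, which form calprotectin, changed by 2.75 ± 0.90 and 2.07 ± 0.72, and S100a9 lost the call without replicate 2 (change 1.84). Without replicate 2 the counts were 1 higher and 7 lower, and without 3-day replicate 1 or 4 or control replicate 1 the count lower was 3. The granule genes Mpo, Mmp8 and Ltf had both group means under the floor. Over the whole list the mean was 3.88 to 4.61 at 3 days and 4.00 to 4.23 in control, and these groups overlapped.

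Sinusoidal endothelial markers rose in 7 of 16 members and fell in 0. Lyve1, a hyaluronan receptor, measured 7.87, 8.84, 6.70 and 6.93 at 3 days and 4.09 to 5.42 in control, a 6.49-fold difference (adjusted p = 0.000508), and remained called with the hybridization covariate. Stab2, a scavenger receptor, rose by 0.94 ± 0.26. The list mean was 6.04 to 6.38 at 3 days and 5.05 to 5.88 in control, and without 3-day replicate 1 the count was 4. Stellate and fibroblast markers had 3 of 15 higher and 1 lower, against 21.7% and 17.7% of all genes. Rgs5, of pericytes, was higher by 1.14 ± 0.24, and 5 members were higher without control replicate 3.

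Lymphocyte markers were low on these arrays. T and NK cell markers had 0 of 12 higher and 4 lower, and 7 of the 12 had both means under the floor. B and plasma cell markers had 0 of 10 higher and 3 lower, among them Cd22 (adjusted p = 0.000634), with 5 under the floor in both groups. The count lower was 1 without 3-day replicate 1 or 3. Erythroid markers were called lower in 3 of 7 members and higher in 0, against 17.7% and 21.7% of all genes. Their changes ran from −2.05 to 0.995, with 2 of the 7 positive. Hba-a1, Slc4a1 and Epb42 had both means under the floor. Alas2, the heme synthesis enzyme of red cell precursors, was at 6.38 to 6.73 at 3 days and 8.50 to 8.68 in control (change −2.05 ± 0.44). Car1 changed by −1.28 ± 0.31.

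Krt7, a keratin of bile ducts, rose by 0.89 ± 0.20, at least 1.3-fold. Krt19, another bile duct keratin, was not called (change 0.43 ± 0.22, adjusted p = 0.117), although it was in a fit of only the groups compared (adjusted p = 0.0128). Cholangiocyte markers had 1 of 8 higher and 2 lower, mesothelial markers 3 of 7 higher and 0 lower, and platelet markers 1 of 6 higher and 2 lower, against 21.7% higher and 17.7% lower of all genes. The mesothelial count was 1 without 3-day replicate 1 or 4 or control replicate 3. The platelet chemokine gene Pf4 rose by 1.17 ± 0.35.

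To place the 3-day livers in time, they were compared with those at 48 hours and at 4 days. Both comparisons share the 3-day arrays with the comparison against control, so their values stand side by side without a correlation. The control probe sets moved here too. The hybridization controls were at 10.27 to 10.45 at 48 hours, 9.57 to 10.21 at 3 days and 9.70 to 9.93 at 4 days, and the poly-A controls averaged 6.67 ± 0.25, 5.17 ± 0.75 and 4.89 ± 0.19 at these times. The 3-day and 48-hour hybridization values did not overlap. A fit that took in the hybridization controls called 15 genes against 48 hours (0 higher and 15 lower at 3 days), and one that took in the poly-A controls called 0, with 1204 at an unadjusted p under 0.05 in limma. Their part in the single genes below was not tested. Against 48 hours 8 of 18194 genes were called, 0.044%, with 4 higher and 4 lower at 3 days, 0.022% of all genes each. At an unadjusted p under 0.05 there were 1851. Without 3-day replicate 2 the number called was 35, and with arrays weighted by their agreement with their group, where replicate 2 had a weight of 0.31, it was 723.

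Anxa1, encoding the anti-inflammatory annexin A1, was one of the 4 higher genes. It averaged 5.72 ± 0.43 in control, 6.08 ± 0.16 at 48 hours, 7.49 ± 0.27 at 3 days and 7.26 ± 0.47 at 4 days (SD, n = 5, 4, 4 and 4). The change from 48 hours to 3 days was 1.41 (adjusted p = 0.0445), and it lost the call without any 1 of the 3-day arrays or without 48-hour replicate 1, 2 or 3, with a change of 1.29 at the lowest. Trim35, a ubiquitin ligase, was higher by 1.21 (adjusted p = 0.0134), lost the call without 3-day replicate 3 or 48-hour replicate 1 or 3 (changes 1.16 to 1.22) and in a fit of only the groups compared (adjusted p = 0.0612), and had probe sets called in opposite directions against control. Sspn and Zp1 were called higher but had both means under the floor.

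The 4 lower genes were Dscc1, which loads the clamp during replication, Clspn, a checkpoint adaptor at replication forks, Cep135, a centriole protein, and Vmn1r58, a vomeronasal receptor. Dscc1 was at 1.97 ± 0.16 in control, 4.38 ± 0.37 at 48 hours, 2.68 ± 0.67 at 3 days and 2.56 ± 0.46 at 4 days. With the 3-day mean below the floor, the change from 48 hours was −1.70 (adjusted p = 0.0271), at least 1.37-fold. It lost the call without 48-hour replicate 1, 2 or 3 or 3-day replicate 2 or 3, with changes of −1.47 to −1.69, and in a fit of only the groups compared (adjusted p = 0.2). Clspn changed by −0.57. It lost the call without 48-hour replicate 1 or 3 or 3-day replicate 1 or 3, with changes of −0.49 to −0.59. Clspn also lost the call in a fit of only the groups compared (adjusted p = 0.283 by limma). Cep135 changed by −1.01, and both Cep135 and Vmn1r58 had both means under the floor. Without 3-day replicate 1 the number called was 3, as it was without replicate 3, and without 48-hour replicate 1 or 3 it was 0 by limma (1702 and 1350 at an unadjusted p under 0.05). It was 4 without 48-hour replicate 2 and 28 without 48-hour replicate 4.

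No list member was called against 48 hours, and list means are given as a description. The extracellular matrix mean was 6.05 ± 0.18 in control, 6.46 ± 0.25 at 48 hours, 7.18 ± 0.09 at 3 days and 7.26 ± 0.28 at 4 days. In 22 of 24 members the change from 48 hours was positive, with a median of 0.76 against 0.02 for all genes, and 10 of the 24 had groups that did not overlap, against 5.05% of all genes. With array weights 10 of 24 were called higher than at 48 hours, against 522 of all 18194 genes. Without the 7 doubted arrays 4 of 24 were, against 77 of all 18194 genes. Kupffer markers had positive changes from 48 hours in 15 of 15 members, with a median of 0.56 and 0 called.

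DNA replication went the other way, with a list mean of 5.18 ± 0.13 in control, 7.45 ± 0.28 at 48 hours, 6.65 ± 0.97 at 3 days and 6.23 ± 0.41 at 4 days. In 1 of 32 members the change from 48 hours was positive and the median was −0.69. The 3 replicates other than replicate 2 lay at 6.94 to 7.24, against 7.08 to 7.74 at 48 hours. Mitosis genes were at 3.62 ± 0.08 in control, 7.04 ± 0.94 at 48 hours, 6.74 ± 1.37 at 3 days and 5.57 ± 1.09 at 4 days, and the 3-day and 48-hour ranges overlapped.

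Against 4 days 0 genes were called by limma, with 895 at an unadjusted p under 0.05. The mitosis list was higher at 3 days in 33 of 33 members, with a median difference of 1.30 and none called. Without 3-day replicate 2, 71 genes were called, 68 of them higher at 3 days, and 13 of 33 mitosis genes were among those higher. For Plk1 the difference was 1.31 (adjusted p = 0.967) with all arrays and 2.03 (adjusted p = 0.0319) without replicate 2, and for Kif20a 1.70 (adjusted p = 0.913) and 2.49 (adjusted p = 0.0124). With array weights 464 genes were called, 406 of them higher. Among the 4-day arrays, replicate 4 likewise stood apart, with a correlation of 0.20 to the mean of the other 4-day arrays. It had the lowest mitosis mean of its group, 4.46, and the highest acute phase mean, 11.77. The fit without 3-day replicate 2 kept this array, and no fit left out both. Without 4-day replicate 4 alone 0 genes were called by limma, with 764 at an unadjusted p under 0.05. Interferon-stimulated genes were lower than at 4 days in 19 of 20 members, with a median difference of −0.63 and 0 called.

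**Figure D5:**
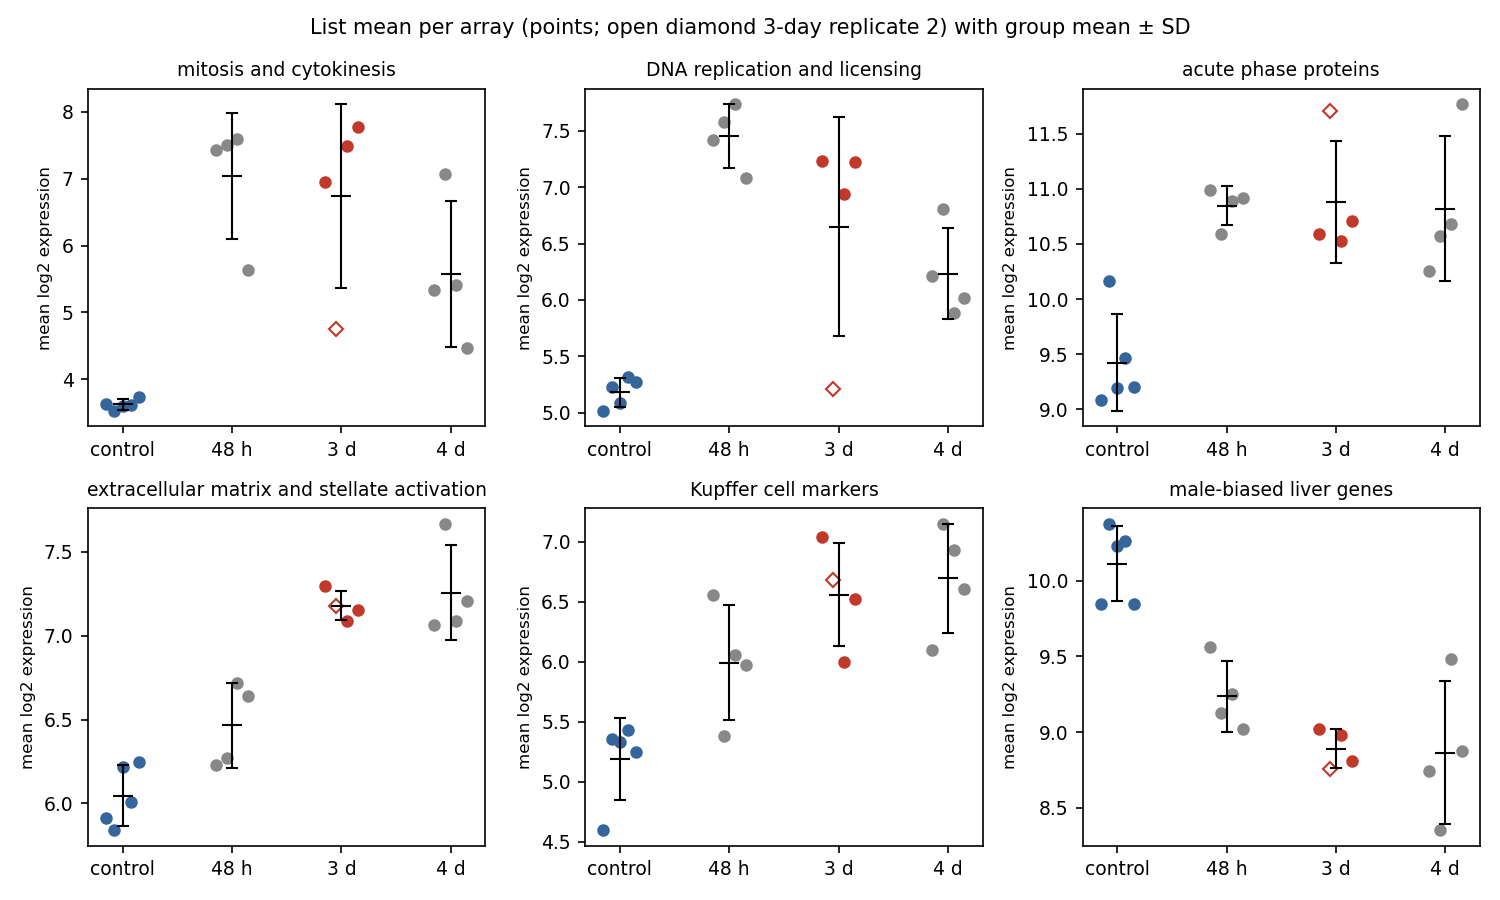
Mean log2 expression over the members of 6 gene lists on each array of the control, 48-hour, 3-day and 4-day groups, with group means ± SD (the open diamond is 3-day replicate 2). Mitosis and replication means are lower at 4 days than at 48 hours, whereas the extracellular matrix mean is 6.46 at 48 hours, 7.18 at 3 days and 7.26 at 4 days.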

How the data were processed

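Total RNA of mouse liver was hybridised to Affymetrix whole-genome mouse arrays, 1 array per sample. The authors deposited log2 expression values for 45101 probe sets, made with oligo 1.52.0 by RMA per the submitters' processing notes, so all 52 arrays share 1 normalization. The arrays' number limits the precision, since no read depth applies.

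Groups came from the titles. A probe set was kept where the platform annotation lists 1 gene (34958 probe sets; 932 list several and 9211 list none), symbols were updated through a GRCm38.p6 gene table (18033 genes matched and 161 kept their symbol), and for each of 18194 genes the probe set brightest on average across the series was used. One limma 3.58.1 model in R 4.3.3 held the means of 12 groups, with contrasts of 3 days against control, 48 hours and 4 days, tested on simulated data beforehand. Alternatives changed the fit, the probe set rule, the scaling, the filter, covariates from control probe sets, and the arrays left out.

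The arrays compared and the 41 gene lists were chosen with earlier results of these data known. The genes named are 22 index genes (21 measured), the 12 largest rises and 12 deepest falls without overlap between groups, up to 4 called members per list by size plus the largest called in the rarer direction, and called genes against 48 hours. Ccna2, Plk1, Prc1, Tpx2, Kif20a, Apcs, Dusp1, Ier5, Acadm, Gckr, Calr, Timp1, Acta2, Vim and Vegfa were named after their values were seen. Genes of several probe sets that were called in opposite directions numbered 553 of 3819 called. Promoter sequences are RefSeq's for GRCm38.p6.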

Additional observations from a re-analysis of the deposited data

Results flagged for a closer look

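A value was marked where the highest or lowest array of a group lay far from the others by Dixon's test. Of 316 gene and group pairs 35 were marked, 11.1%, where chance marks about 1 in 20 groups, and 17 of the 35 concern 3-day replicate 2.

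In 3-day replicate 2 the cell cycle genes were low. Birc5 was at 5.47 (8.79 to 9.45 on the other 3-day arrays), Mki67 at 5.12 (8.87 to 9.42), Cdk1 at 6.36 (9.72 to 10.33), Esco2 at 2.76 (6.95 to 7.54) and D17H6S56E-5 at 6.32 (9.80 to 10.22). Mcm5 was at 4.97 (8.55 to 8.95), Mcm6 at 4.80 (8.25 to 8.79), Rrm2 at 5.41 (9.16 to 9.73), Uhrf1 at 2.69 (5.79 to 6.28), Cdkn2c at 6.80 (8.60 to 8.93), Rbl1 at 4.06 (7.04 to 7.25) and Stmn1 at 8.22 (11.23 to 11.56). Klf6 was low as well, at 5.51 (6.48 to 6.64). On the same array Nr4a1 was high at 5.76 (5.22 to 5.30), Cyp17a1 at 9.46 (8.50 to 8.58), Cyp3a13 at 11.97 (10.21 to 10.38) and Cd22 at 5.43 (4.44 to 4.56).

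Other 3-day arrays were marked for Foxm1 at 4.35 in replicate 4 (4.84 to 4.91 on the others), Slc30a1 at 8.12 in replicate 4 (8.53 to 8.59), Ier5 at 6.17 in replicate 3 (6.48 to 6.54), S100a4 at 3.64 in replicate 3 (5.33 to 5.52) and Cth at 12.98 in replicate 1 (12.72 to 12.76).

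Among control arrays, replicate 1 was low for Pcna at 6.98 (7.67 to 7.94 on the other control arrays), Ahsg at 12.17 (12.46 to 12.57), Psmc1 at 7.04 (8.22 to 8.64), Tek at 3.44 (4.40 to 4.76) and Ctss at 5.64 (6.54 to 6.73). Control replicate 2 was high for the acute phase genes Saa2 at 10.49 (6.20 to 6.69), Saa1 at 11.97 (7.14 to 8.44) and Apcs at 10.69 (9.91 to 10.11). Control replicate 5 was low for Elovl3 at 9.02 (11.07 to 11.36) and Srxn1 at 6.29 (6.52 to 6.60) and high for Acot3 at 5.26 (4.53 to 4.74). Control replicate 4 was high for Afp at 3.94 (2.83 to 3.12) and low for Vmn1r58 at 3.02 (3.36 to 3.45).

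The times differed by limma's test of 3 days minus 48 hours for Anxa1 (1.41), Trim35 (1.21), Sspn (1.03), Zp1 (0.62), Vmn1r58 (−0.72), Clspn (−0.57), Cep135 (−1.01) and Dscc1 (−1.70).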

How the results depend on the processing

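Against control the number of genes called was 7168, and 12693 of 34958 when every probe set was tested, 4732 at an adjusted p under 0.01, 1522 with at least 2-fold change, 188 with the hybridization controls as a covariate and 3007 with the poly-A controls as a covariate. Leaving out single arrays gave 5650 to 7908. Calls higher at 3 days were 55.1% of all calls, but 47% with arrays centred on their medians, 44.9% after a further quantile normalization and 69.5% with genes under the 40th percentile left out, and the Gapdh covariate gave 5928 calls. Against 48 hours 8 genes were called, but 2 with only the groups compared, 17 over every probe set, 1 without genes under the 40th percentile, 13 with arrays centred on their medians, 723 with array weights, 1 at an adjusted p under 0.01 and 5 with at least 2-fold change. The hybridization, poly-A and Gapdh covariates gave 15, 0 and 14 (1204 at an unadjusted p under 0.05 for the 0), leaving out the 7 doubted arrays gave 111, leaving out 3-day replicate 2 with control replicate 1 gave 60, and single arrays gave 0 to 35. Against 4 days 0 genes were called, but 464 with array weights, 1 with the poly-A covariate, 4 without the 7 doubted arrays, 70 without 3-day replicate 2 and control replicate 1, and 0 to 71 without single arrays. Leaving out 3-day replicate 2 and control replicate 1 together was chosen after seeing the data. Replicate numbers were not taken to pair the arrays. Deviations of same-numbered arrays correlated at −0.15 to 0.17 against control, −0.13 to 0.27 against 48 hours and −0.51 to 0.04 against 4 days. A replicate block gave 6722, 5 and 1 calls in the 3 comparisons. Directions turned for Tpx2 (0.95), Fen1 (0.61) and, against control, Clspn (0.19) when probe sets of a gene were averaged, and for Cyp7a1 (−0.39) with the hybridization covariate, and the cause was not tested.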
